A study of Rattus norvegicus with 93 samples.

Results

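The marrow response to topotecan followed by oxaliplatin was set against the sum of the responses to the 2 drugs given alone, gene by gene, 24 h after dosing ended. The question was which genes moved less than the single agents together would give, and which moved more. The comparison used 15 of the 93 rats of the series. All were male Sprague-Dawley rats, 8 weeks old, and each gave 1 array of cells flushed from the left femur. Every rat received a pair of intravenous infusions of 30 min each, 30 min apart. NaCl/D5W was the vehicle group, with 0.9% NaCl and then 5% dextrose in water (D5W) (n = 4). Topotecan/D5W received topotecan at 4.7 mg/kg and then the dextrose vehicle (n = 3). NaCl/oxaliplatin received saline and then oxaliplatin at 15 mg/kg (n = 4), and topotecan/oxaliplatin received both drugs at these doses (n = 4). Each drug was given at 1 dose, so no dose-response model of a combination could be fitted.

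Topotecan traps topoisomerase I on DNA and leaves breaks when replication forks run into it. Oxaliplatin is a platinum compound that forms cross-links in DNA, which also block replication. Bone marrow holds rapidly dividing precursors of red cells, granulocytes and platelets beside stromal, bone-lining and vascular cells, and both drugs are known to suppress blood cell production. In whole marrow, fewer cells of a type and less RNA per cell cannot be told apart.

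The values are log2 probe set signals. The 3 differences from the vehicle group were taken for each probe set, those of topotecan/D5W, NaCl/oxaliplatin and topotecan/oxaliplatin. The interaction is the difference of the combination minus the sum of the differences of the single agents. It is 0 where the drugs' effects add on the log2 scale, which means that their folds multiply. A probe set with a called interaction was termed saturating where the interaction had the sign opposite to the sum. The combination then fell short of the sum. It was termed exceeding where both had the same sign. The class rests on these signs alone, also where the sum is near 0 or the combination lies on the other side of vehicle. An interaction was called at a Benjamini-Hochberg adjusted p under 0.01 over the 12532 probe sets tested, and an error after ± is a standard error from limma unless marked SD.

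The 15 arrays had medians from 8.95 to 9.2 and correlated with each other at 0.846 to 0.993. Topotecan/D5W rat 35 stood apart from the other 2 rats of its group, with a mean over the mitosis genes of 10.48 against 9.87 and 9.92 and a mean over the heme synthesis genes of 10.86 against 10.27 and 10.13. The mean over 19 skeletal muscle genes was 7.44 in topotecan/oxaliplatin rat 53 and ran from 5.83 to 6.66 in the other 14 rats, and no muscle gene had a called interaction. NaCl/oxaliplatin rats 77 and 84 had means over 8 cartilage matrix genes of 8.15 and 8.27 against 6.04 and 6.18 in the other 2 rats of their group. The part of muscle tissue in any result below was not tested beyond leaving rats out.

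At 24 h the interaction was called for 1712 probe sets, which is 13.7% of those tested, and was positive for 926 (7.39%) and negative for 786 (6.27%). Of these, 1683 were saturating and 29 exceeding. Without topotecan/D5W rat 35 the counts were 1665 and 18, and without topotecan/oxaliplatin rat 53 they were 1505 and 33. Without NaCl/oxaliplatin rats 77 and 84 they were 1123 and 15. With the run of the submitters' sample codes as a block, 717 interactions were called positive and 440 negative. Against vehicle, 33.4% of probe sets were called with topotecan, 55.1% with oxaliplatin and 61.1% with both.

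The sum and the interaction were computed from the same single-agent rats, with opposite signs, and error in those rats therefore leans probe sets toward saturating. The direction of the sum was also taken from 11 other rats, which had received the single agents and vehicles in the other order. It gave the same class for 899 of the 919 saturating probe sets with a positive interaction and for 720 of the 764 with a negative one. It did so for 21 of 22 and 6 of 7 exceeding probe sets. By this direction 1621 of the called probe sets were saturating and 91 exceeding, and 1632 and 80 without 2 of these rats with strong skeletal muscle signal.

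When probe sets were grouped by the sum measured in those other rats, the shortfall was present on both sides, leaving aside the 8253 probe sets with a sum from −1 to 1, whose median sum was −0.03 and median combination −0.11. Among the 72 probe sets with a sum below −4, the median sum was −4.84 and the median combination −2.87, or 59.2% of the sum, and 95.8% were called. For sums from −2 to −1 the combination reached 67.8% of the sum over 1450 probe sets, with 24.2% called. Raised probe sets came closer to the sum. For sums from 1 to 2 the combination reached 75.6% over 1615 probe sets, with 13.1% called, and above 4 it reached 69.1% over 53 probe sets, with 45.3% called.

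**Figure D1:**
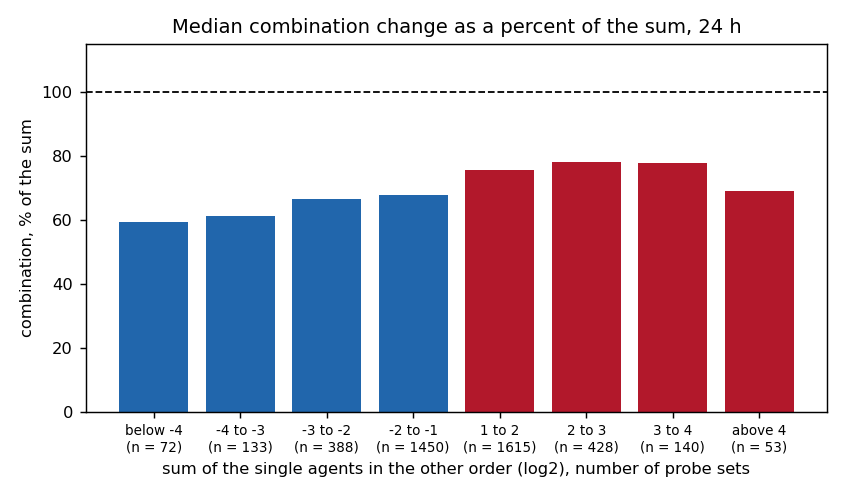
Median change with topotecan/oxaliplatin as a percent of the median sum of the single agents at 24 h (y axis), for probe sets grouped by the sum in rats that received the drugs in the other order (x axis, log2, with the number of probe sets). The 8253 probe sets with a sum from −1 to 1 are not drawn, and in each group drawn the combination falls short of the sum, from 59.2% for sums below −4 to 78.2% for sums from 2 to 3.

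The 919 saturating probe sets with a positive interaction were mostly genes that each drug lowered. Both single agents lowered 820 of them. In 72 only 1 of the drugs was called, in either direction, and in 27 neither was. Their median change was −0.93 with topotecan, −0.92 with oxaliplatin and −0.98 with both, against a median sum of −1.84. The combination was thus near the level of either drug alone, and it differed from neither single agent by more than the test's threshold in the direction of the sum in 587. It was below 1 single agent in 193 and below both in 27. In the other 112 it was significantly short of the stronger drug.

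Red cell precursor genes had the highest shares of called members among the 30 lists. Each drug lowered 10 of 11 heme synthesis genes, with 17.3% of all probe sets called lowered by topotecan and 30.2% by oxaliplatin. These genes build the iron-binding pigment of hemoglobin. Of the 11 genes 9 had a called positive interaction (7.39% of all probe sets) and none a negative one. Their medians were −2.01 with topotecan, −1.87 with oxaliplatin and −2.15 with both, against a sum of −3.89. Uros, which makes the ring of the heme precursor, stood at 10.32, 10.42, 10.50 and 10.32 in the vehicle rats, 7.40, 8.40 and 6.60 with topotecan, 6.79, 6.82, 6.64 and 6.92 with oxaliplatin, and 7.27, 6.76, 6.60 and 6.21 with both. All treated rats were below all vehicle rats, and the 3 treated groups overlapped. Its interaction was 2.84 ± 0.35 (adjusted p = 1.86e-07), and 2.41 to 3.31 when each rat was left out in turn.

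Alad and Ppox, other enzymes of the pathway, had interactions of 2.27 and 2.07. Alas2, the erythroid enzyme that starts the pathway, was the exception. Its differences were 0.02, 0.29 and 0.19 with topotecan, oxaliplatin and both, with an interaction of −0.11 (95% confidence interval −0.32 to 0.10). Tmem14c, a mitochondrial protein needed for heme synthesis, fell with each drug and further with both, to −1.45, and its interaction of 0.34 did not pass (adjusted p = 0.0183).

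Among 12 red cell membrane genes, 11 had a called positive interaction (7.39% of all probe sets). The strongest were in Rhag (2.45), the Rh-associated glycoprotein, and Dmtn (2.44), which bundles actin under the membrane. Gypc, glycophorin C, measured 12.09, 12.08, 12.13 and 11.97 in vehicle rats, 10.29, 10.48 and 9.89 with topotecan, 10.67, 10.45, 10.76 and 10.59 with oxaliplatin, and 10.78, 10.46, 10.33 and 10.64 with both. The combination rats overlapped both single-agent groups, and all rats were above the level of the sum, 8.77. The interaction was 1.78 ± 0.18 (adjusted p = 5.94e-09). Xk was the member not called, with 0.18.

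Of 20 erythroid regulators and other red cell genes, 18 had a called positive interaction (7.39% of all probe sets) and none a negative one. The median change was −1.91 with both drugs against a sum of −3.25. The list's largest values were Ypel4 (3.05), Plek2 (2.99), the water and glycerol channel Aqp3 (2.93) and the transcription factor Sox6 (2.74). Aqp3 was 10.43, 10.71, 10.65 and 10.53 in vehicle rats, 6.18, 8.33 and 5.90 with topotecan, 7.13, 7.23, 7.15 and 6.67 with oxaliplatin, and 6.45, 6.18, 6.02 and 6.14 with both. The combination rats overlapped the topotecan rats and were all below the oxaliplatin rats.

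The transcription factors that direct red cell development shared the pattern at high signal. Gata1 measured 11.15, 11.19, 11.23 and 11.08 in vehicle rats, 9.76, 9.96 and 9.66 with topotecan, 9.84, 10.19, 10.15 and 10.22 with oxaliplatin, and 10.00, 9.78, 10.29 and 10.28 with both. The combination rats overlapped each single-agent group, and the interaction was 1.35 ± 0.18 (adjusted p = 7.84e-07). For Klf1 it was 2.00 and for Gfi1b 1.26. Tal1 was lowered by 1.13 and 1.16 with the single agents and by 0.83 with both, an interaction of 1.46 ± 0.16 (adjusted p = 2.3e-08). Xpo7 (0.78, adjusted p = 0.061) and Bcl11a (−0.43, adjusted p = 0.21) did not pass.

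Epor, the erythropoietin receptor, is a known GATA1 target, and its promoter is shown because it holds the core of the GATA motif, searched as AGATAA on both strands. The sequence is from RefSeq on GRCr8, chr8:28770273-28770572, minus strand, a window of 300 bases around the annotated start, with the motif in capitals (read as AGATAA on the opposite strand).
Epor promoter: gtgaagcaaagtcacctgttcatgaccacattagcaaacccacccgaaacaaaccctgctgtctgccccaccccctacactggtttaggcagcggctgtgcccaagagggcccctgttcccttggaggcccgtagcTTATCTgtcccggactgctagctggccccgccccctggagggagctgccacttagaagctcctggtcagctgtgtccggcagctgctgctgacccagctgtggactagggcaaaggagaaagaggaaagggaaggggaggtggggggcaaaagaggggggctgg
Epor stood at 11.33, 11.39, 11.44 and 11.13 in vehicle rats, 10.05, 10.03 and 9.55 with topotecan, 9.54, 9.75, 9.69 and 9.89 with oxaliplatin, and 9.67, 9.87, 10.16 and 9.95 with both. The 3 treated groups overlapped, below all vehicle rats. The interaction was 1.64 ± 0.22 (adjusted p = 7.44e-07). AGATAA was present in 11.3% of all 27457 promoters, in 6.41% (421 of 6566) of those of the genes measured, in 15.2% (5 of 33) of the red cell genes above and in 7.31% (34 of 465) of the saturating genes lowered by both drugs.

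A signal cannot fall below the lower end of the array, which bears on sums this large. The lowest value in the table was 3.94 and the 5th percentile of the 15 arrays 6.4. The level of the sum lay under the lowest value in 21 of the 919 probe sets and under the 5th percentile in 197. It was 3.87 for Uros, 3.26 for Aqp3, 2.37 for Sox6, 8.73 for Gata1, 10.77 for Tal1 and 8.27 for Epor. The other 722 probe sets had a median sum of −1.62, a median combination of −0.86 and a median interaction of 0.78. In the red cell lists, 26 of the 38 called genes had a sum level at or over the 5th percentile, with interactions from 0.49 to 2.45. This percentile is taken over all values and is not the lower end of any single probe set. The part of the array range in these shortfalls was not tested.

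**Figure D2:**
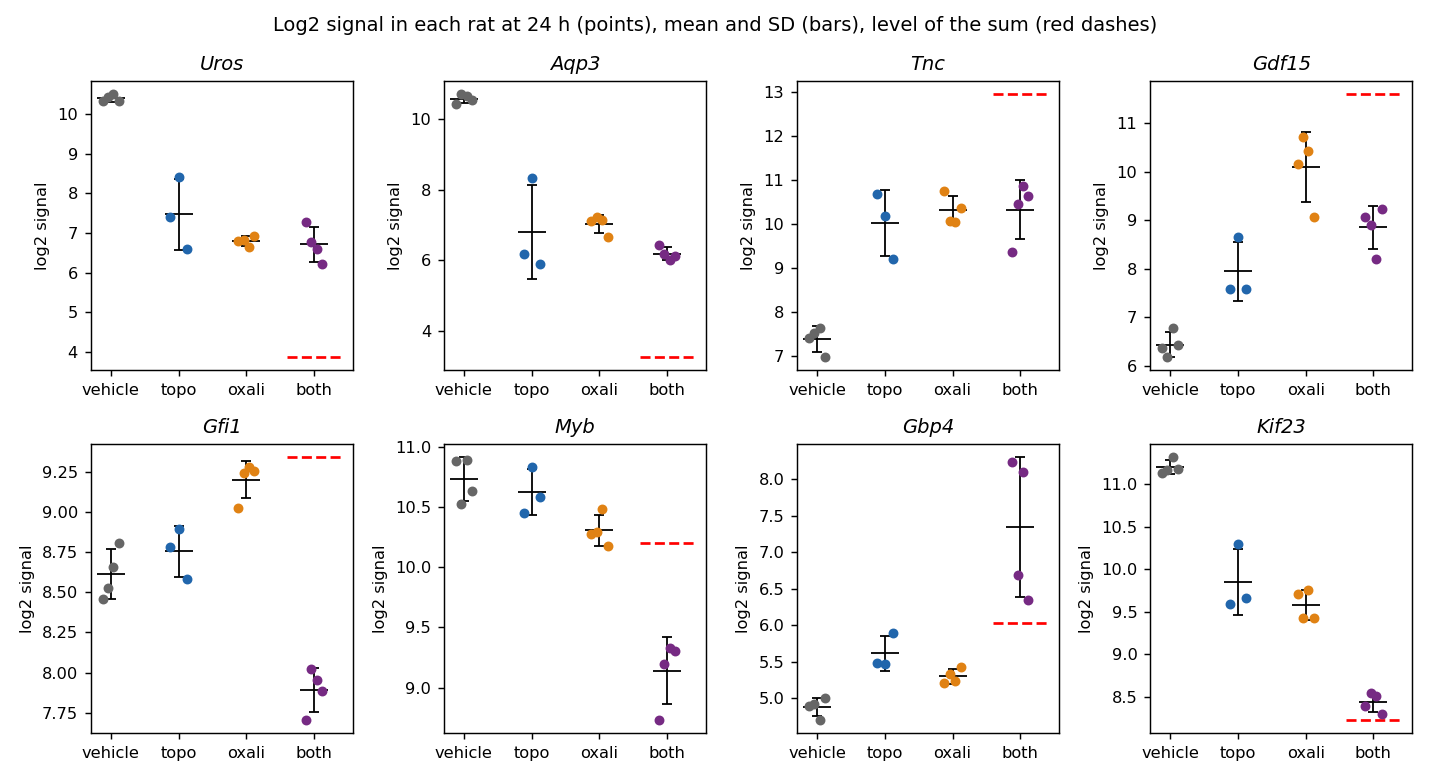
Log2 signal (y axis) of 8 genes in each rat at 24 h for vehicle, topotecan (topo), oxaliplatin (oxali) and both drugs, with points for rats, bars for mean and SD, and red dashes at the level of the sum. For Uros and Aqp3 the combination lies far above the sum, for Kif23 near it, for Gdf15, Tnc and Gfi1 below it, and Myb lies below and Gbp4 above sums of small size.

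Prnp, the cellular prion protein, is an example in which the combination was nearer to vehicle than either drug. It measured 10.26, 10.74, 10.39 and 10.23 in vehicle rats, 8.39, 8.91 and 8.03 with topotecan, 8.77, 8.53, 8.72 and 8.32 with oxaliplatin, and 9.16, 9.24, 9.26 and 9.02 with both. All combination rats lay between the vehicle rats and all single-agent rats. The interaction was 2.54 ± 0.26 (adjusted p = 7.02e-09). Other named genes lowered by both drugs were Spint1 (2.78), Fn3k (2.43), Reln (2.41) and Ackr1 (2.40), the atypical chemokine receptor of red cells and venules, and in none of these 4 was the combination called short of the stronger drug. Another probe set of Reln had an interaction of 0.40, which was not called (adjusted p = 0.036).

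No shortfall was called for mitosis genes on the log2 scale. All 37 measured fell with each drug and with both, where 35.2% of all probe sets were called lowered with both, and none had a called interaction, against 13.7% of all probe sets. Medians were −1.0 with topotecan, −1.20 with oxaliplatin and −2.10 with both, against a sum of −2.20, so the combination was at 95.3% of the sum. The combination differed from topotecan alone in 29.6% of all probe sets and was below it in 18% of them and in 37 of 37 mitosis genes. It differed from oxaliplatin alone in 15.9% of all probe sets and was below it in 8.43% of them and in 36 of 37 mitosis genes. The 95% confidence interval of the interaction lay within −1 to 1 in 36 of 37 and included 0 in 33. No sum level of the list lay under the 5th percentile of the arrays. On the linear signal scale, where changes in signal and not folds add, the interaction was positive in 36 of 37. Its median there was 0.30 times the vehicle signal, so the closeness to the sum was seen on the log2 scale.

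Kif23, a motor of the central spindle in dividing cells, measured 11.14, 11.16, 11.32 and 11.18 in vehicle rats, 9.59, 10.30 and 9.66 with topotecan, 9.71, 9.43, 9.76 and 9.43 with oxaliplatin, and 8.39, 8.54, 8.51 and 8.30 with both. All combination rats were below all single-agent rats. The interaction was 0.21 ± 0.21 (95% confidence interval −0.21 to 0.63). In topotecan/D5W rat 35 this gene, like the list as a whole, was higher than in the other 2 rats. A higher rat in that group makes the sum smaller in size, and the list was not examined without rat 35.

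DNA replication genes took a middle place on the log2 scale. The interaction was called positive for 12 of 34 (7.39% of all probe sets) and negative for none. The medians were −0.74, −1.10 and −1.43 against a sum of −1.88. On the linear scale the interaction was positive in 33 of 34, with a median of 0.32 times the vehicle signal, against 0.30 for mitosis genes. The largest were in Gins1 (0.92), part of the replicative helicase, and Cdt1 (0.91), which loads the helicase at origins. Pcna, the sliding clamp, had 0.41 ± 0.08 (adjusted p = 0.000273). The promoter of Cdt1 (GRCr8, chr19:67528999-67529298, plus strand) is shown because it holds an E2F motif, the site of the factors that switch on replication genes, searched as TTCCCGC on both strands and read here on the opposite strand in capitals.
Cdt1 promoter: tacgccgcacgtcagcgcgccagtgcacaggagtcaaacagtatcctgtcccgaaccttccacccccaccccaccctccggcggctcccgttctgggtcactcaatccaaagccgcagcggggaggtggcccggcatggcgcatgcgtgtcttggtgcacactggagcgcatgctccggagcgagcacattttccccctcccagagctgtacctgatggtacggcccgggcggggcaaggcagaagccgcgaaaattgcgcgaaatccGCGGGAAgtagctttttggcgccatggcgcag
TTCCCGC was in 4.47% of all promoters, 8.89% of those of the genes measured, 38.7% (12 of 31) of the replication genes and 6.06% (2 of 33) of the mitosis genes. Cdt1 measured 11.18, 11.17, 11.16 and 11.03 in vehicle rats, 9.94, 10.28 and 9.67 with topotecan, 9.54, 9.77, 9.72 and 9.71 with oxaliplatin, and 9.33, 9.25, 9.77 and 9.33 with both. The combination overlapped the single agents in 1 rat and was below them in the other 3. Its interaction was 0.91 ± 0.23 (adjusted p = 0.00365).

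**Figure D3:**
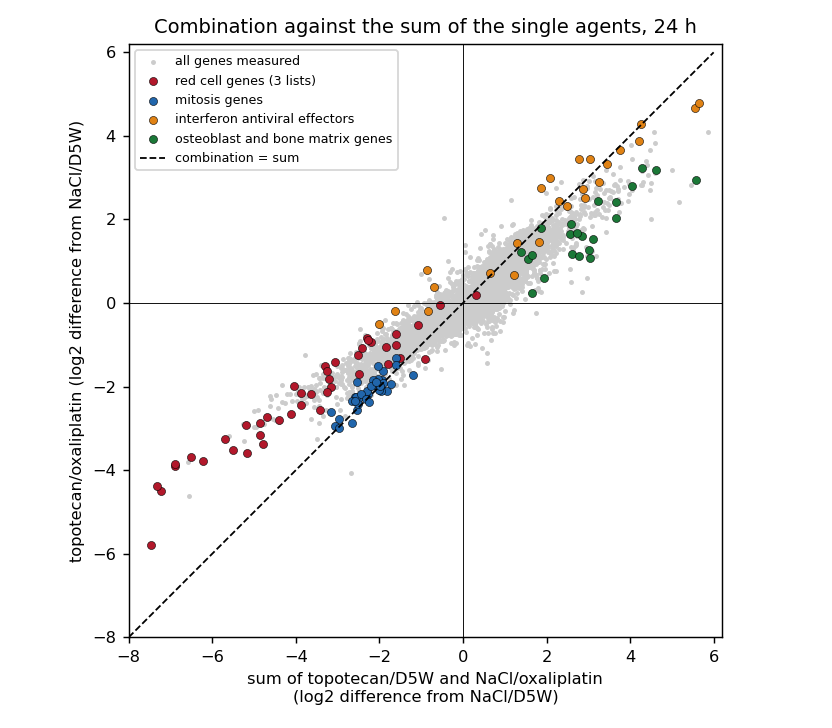
Change with topotecan/oxaliplatin (y axis) against the sum of the single agents (x axis), both as log2 difference from vehicle at 24 h, with 1 point per gene, gene lists in colour and the dashed line where the combination equals the sum. Red cell genes lie above the line on the left, with a median combination of −2.15 against a sum of −3.89 for heme synthesis, and mitosis genes lie near it, with −2.10 against −2.20.

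The 764 saturating probe sets with a negative interaction had a median of 0.35 with topotecan, 0.60 with oxaliplatin and 0.21 with both, against a sum of 0.92. Both drugs raised 357 of them. In 326 only 1 drug was called, in either direction, in 78 neither was, and in 3 the drugs went in opposite directions. The combination was significantly short of the stronger drug in 388. The level of the sum was over the 95th percentile of the arrays (12.1) in 116 and over the highest value (15.4) in none.

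Of 22 osteoblast genes 5 had a called negative interaction (6.27% of all probe sets) and none a positive one. The medians were 1.55, 1.30 and 1.62 against a sum of 2.81. Tnc, a matrix protein of bone and tendon, was 7.42, 7.52, 7.64 and 6.98 in vehicle rats, 10.69, 10.19 and 9.21 with topotecan, 10.75, 10.07, 10.06 and 10.38 with oxaliplatin, and 9.36, 10.47, 10.88 and 10.63 with both. The 3 treated groups overlapped, all above vehicle. Its interaction was −2.63 ± 0.45 (adjusted p = 3.68e-05). The other called genes were Smpd3 (−1.64), Bmp4 (−1.43), Alpl (−1.41), the alkaline phosphatase of bone, and Bmp2 (−1.07). NaCl/oxaliplatin rats 77 and 84 stood apart, with means over the list of 10.45 and 10.05 against 9.36 and 9.14 in the other 2 rats of the group. Without them the list's median interaction was −0.71 in place of −1.25, and Tnc (−2.38, adjusted p = 0.000865) and Bmp4 (−1.27, adjusted p = 0.00231) were the members called.

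Of 19 collagens and collagen enzymes, 4 had a called negative interaction (6.27% of all probe sets) and 1 a positive one (7.39%). Serpinh1, a collagen chaperone, had −1.82 ± 0.28 (adjusted p = 5.42e-06) and was raised by 2.43, 2.57 and 3.17. Fkbp10 (−1.27), Pcolce (−1.05) and Col5a3 (−0.57) followed, and Plod1 had 0.64. Without rats 77 and 84 Serpinh1 (−1.64, adjusted p = 0.00021) was the member called. Inhibitors of WNT signalling were among the 12 genes of largest negative interaction that both single agents raised, with Wif1 at −1.74 and Sfrp1 at −1.44, beside the smooth muscle gene Tagln at −1.76 and Fat1, Mfap5, Adamts9 and Emid1 at −1.62 to −1.46.

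Of 21 macrophage genes, topotecan raised 14 (16.1% of all probe sets), oxaliplatin 19 (24.9%) and both 18 (25.9%). The combination was above topotecan in 3 (11.5% of all probe sets) and above oxaliplatin in 2 (7.44%). Of the list, 8 had a called negative interaction (6.27% of all probe sets) and none a positive one. The medians were 0.74, 0.97 and 0.82 against a sum of 1.71. Cd163, the hemoglobin scavenger receptor, measured 9.16, 9.25, 9.24 and 9.30 in vehicle rats, 10.47, 9.95 and 9.80 with topotecan, 10.32, 10.12, 10.14 and 9.94 with oxaliplatin, and 10.24, 10.14, 9.45 and 9.95 with both. All treated rats were above vehicle, and the combination overlapped both drugs. The interaction was −1.02 ± 0.23 (adjusted p = 0.00125). Gpnmb (−1.38), Cd5l (−1.35), Axl (−1.0), Mrc1 (−0.84), Hmox1 (−0.83), C1qb (−0.72) and Csf1r (−0.52) were the others.

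Genes of the p53 response, which stops the cell cycle or starts cell death after DNA damage, were split. Gdf15, a secreted stress factor, was 6.38, 6.18, 6.78 and 6.42 in vehicle rats, 7.59, 8.66 and 7.59 with topotecan, 10.16, 10.73, 10.42 and 9.07 with oxaliplatin, and 9.07, 8.91, 8.21 and 9.24 with both. The combination was above all topotecan rats in 3 of 4 rats and below 3 of the 4 oxaliplatin rats. Its interaction was −2.75 ± 0.60 (adjusted p = 0.000856). Aen (−1.33), a nuclease of apoptosis, and Ccng1 (−1.01) followed the same order of groups.

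Cdkn1a, the p21 inhibitor of cyclin-dependent kinases, was 7.83, 7.42, 7.23 and 7.70 in vehicle rats, 8.90, 8.07 and 8.40 with topotecan, 10.12, 9.91, 9.78 and 10.38 with oxaliplatin, and 10.78, 10.77, 10.95 and 10.35 with both. The combination rats were the highest except for an overlap of 1 rat with oxaliplatin, and the interaction was −0.25 (95% confidence interval −0.94 to 0.45). Phlda3 likewise had −0.24 (−0.76 to 0.29). Gadd45a (1.08) and Triap1 (0.59), which each drug lowered, had positive interactions. Over the list of 19 genes, 2 were called positive (7.39% of all probe sets) and 3 negative (6.27%).

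Of 14 genes of the oxidant defence, 4 were called positive (7.39% of all probe sets) and 1 negative (6.27%), the latter Hmox1. Both subunits of the enzyme that limits glutathione synthesis were lowered by each drug. Gclc changed by −2.06, −2.19 and −2.40 with topotecan, oxaliplatin and both, an interaction of 1.85. Gclm changed by −1.59, −1.03 and −1.38, an interaction of 1.24. Srxn1 (0.80) and catalase, Cat (0.74), were the others.

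**Figure D4:**
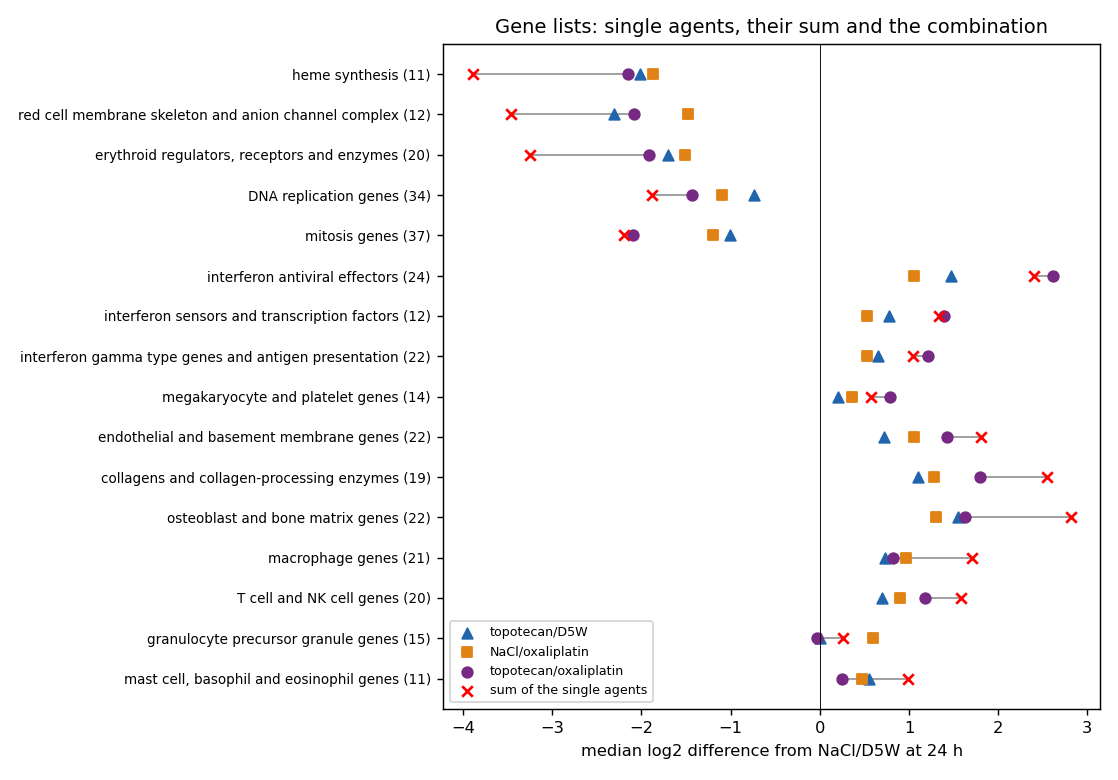
Median log2 difference from vehicle at 24 h (x axis) of 16 gene lists (y axis, number of genes measured), with triangles for topotecan, squares for oxaliplatin, circles for both drugs and crosses for the sum. Circles and crosses are far apart for red cell, osteoblast and macrophage genes and close together for mitosis (−2.10 against −2.20) and interferon effector genes (2.62 against 2.40).

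In 99 saturating probe sets, 88 of them with a negative interaction, the combination was called on the other side of vehicle from the sum. The granulocyte precursor genes Gfi1 and Cebpe were among them. Of the 15 genes of that type measured, 8 had a called negative interaction (6.27% of all probe sets) and none a positive one. By sign 7 of the 8 were saturating and 1, Fcnb, exceeding. With both drugs 4 of the 15 were called raised and 5 lowered (25.9% and 35.2% of all probe sets). The list medians were 0.01 with topotecan, 0.59 with oxaliplatin, −0.03 with both and 0.26 for the sum.

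Gfi1, a repressor needed for neutrophil development, was 8.46, 8.53, 8.66 and 8.81 in vehicle rats, 8.78, 8.90 and 8.58 with topotecan, 9.03, 9.24, 9.28 and 9.26 with oxaliplatin, and 7.71, 8.02, 7.96 and 7.89 with both. Oxaliplatin rats were the highest of all and combination rats the lowest, without overlap. The interaction was −1.45 ± 0.14 (adjusted p = 4.19e-09). Cebpe, the transcription factor of the granule genes, had the same order, with oxaliplatin rats from 10.62 to 10.68 above vehicle rats from 9.77 to 9.86 and combination rats from 9.04 to 9.42 below them. Its interaction was −1.35 ± 0.19 (adjusted p = 1.26e-06).

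The granule genes Orm1 (−0.92), Mmp9 (−0.75), Pglyrp1 (−0.55), Camp (−0.41) and Np4 (−0.35) were also called for the interaction. None of 9 mature neutrophil genes was. Among mast cell and eosinophil genes 4 of 11 were called negative (6.27% of all probe sets). They were the mast cell proteases Cma1 (−2.58) and Mcpt1 (−1.60), the receptor subunit Ms4a2 (−1.33) and eosinophil peroxidase Epx (−1.18). Their combination values against vehicle were 0.27, 0.26, −0.34 and −0.35, none of which was called. Of 20 T and NK cell genes 3 were called negative (6.27% of all probe sets). Nkg7, a protein of cytotoxic granules, changed by 0.34, 0.55 and −0.43, an interaction of −1.32 ± 0.19 (adjusted p = 2.36e-06).

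Metabolic genes were also among those that crossed vehicle. Ass1, an enzyme of arginine synthesis, changed by 0.36 and 0.22 with the single agents, neither called, and by −1.19 with both, an interaction of −1.77 ± 0.33 (adjusted p = 0.000142). Alas1, the general enzyme that starts heme synthesis, changed by 0.35, 0.61 and −0.33, an interaction of −1.30, opposite in sign to those of the 9 called heme genes above. In the other direction Isg20 (1.63), an exonuclease induced by interferon, and Tgm2 (1.05), transglutaminase 2, crossed from a negative sum to a raised combination.

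By the sum of their own single agents 29 probe sets exceeded it, 22 lowered and 7 raised, against 91 by the direction of the sum in the other rats. In all 29 the combination was beyond both single agents, which the definition of the class makes likely. The combination minus 1 drug equals the change with the other drug plus the interaction. In 20 neither single agent was called. The lowered ones had a median combination of −0.85 against a sum of −0.17, and the raised ones 1.21 against 0.11. With sums this near 0 the class can turn on a small difference. For Fut2, 1 probe set was exceeding with a sum of −0.11 and another saturating with a sum of 0.29.

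Among the lowered, Myb, a transcription factor of blood progenitors, was 10.88, 10.52, 10.89 and 10.63 in vehicle rats, 10.45, 10.83 and 10.58 with topotecan, 10.28, 10.29, 10.48 and 10.18 with oxaliplatin, and 8.73, 9.20, 9.33 and 9.31 with both. All combination rats lay below all others. The interaction was −1.05 ± 0.21 (adjusted p = 0.000206), and −1.14 to −0.92 with each rat left out.

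Fcnb, a lectin of granulocyte precursors, was 13.70, 13.81, 13.74 and 14.04 in vehicle rats, 13.52, 13.90 and 13.59 with topotecan, 11.18, 10.80, 12.19 and 11.00 with oxaliplatin, and 10.48, 8.53, 10.49 and 9.54 with both. Topotecan overlapped vehicle, and the combination rats were below all oxaliplatin rats. The interaction was −1.39 ± 0.37 (adjusted p = 0.00515). Without topotecan/oxaliplatin rat 54 it was −0.98 and not called (adjusted p = 0.015). The call was also lost when NaCl/D5W rat 5 or 11 or topotecan/D5W rat 35 was left out. The same held for topotecan/oxaliplatin rat 60 and NaCl/oxaliplatin rat 83, with adjusted p up to 0.019. Nor was it called with the rats of 24 h alone (adjusted p = 0.0890) or both orders of the single agents pooled (0.0343). Cdca7, a chromatin gene of cycling cells, had −0.80 ± 0.13 (adjusted p = 1.54e-05). Mcpt9 (−0.80), Gusb (−0.72), Tiam1 (−0.71), Atp11b (−0.71) and Mtfr2 (−0.68) complete the named lowered genes.

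The raised exceeding genes were Gbp4, Agtr1a, Tmem140, Bmp5, Clic4 and Bcam. Gbp4, a guanylate-binding protein induced by interferon, was 4.89, 4.93, 4.71 and 5.01 in vehicle rats, 5.48, 5.47 and 5.89 with topotecan, 5.20, 5.34, 5.23 and 5.43 with oxaliplatin, and 8.23, 6.69, 8.10 and 6.35 with both. The combination rats were all above the others and fell into a higher and a lower pair. Its interaction was 1.31 ± 0.31 (adjusted p = 0.00163), and 1.01 to 1.64 with each rat left out. It was not called with the rats of 24 h alone (adjusted p = 0.0679), with both orders of the single agents pooled (0.0508) or with the run of the sample codes as a block (0.0443).

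The Gbp4 promoter (GRCr8, chr2:233978236-233978535, plus strand) is shown because it holds an interferon response element, searched as GAAANNGAAA on both strands and given in capitals as read on the opposite strand.
Gbp4 promoter: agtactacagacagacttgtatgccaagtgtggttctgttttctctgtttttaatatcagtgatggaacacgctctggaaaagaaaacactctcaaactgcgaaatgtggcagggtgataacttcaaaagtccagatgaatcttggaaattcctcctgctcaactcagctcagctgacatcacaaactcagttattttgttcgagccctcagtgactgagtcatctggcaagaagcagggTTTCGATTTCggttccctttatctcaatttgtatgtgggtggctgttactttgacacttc
This motif was in 3.77% of all promoters, 3.3% of those of the genes measured, 66.7% (10 of 15) of the interferon effector genes and 10.5% (2 of 19) of the exceeding genes. The motif matches are a description of these windows only.

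Agtr1a, the angiotensin receptor of vascular and perivascular cells, was 5.15, 5.39, 4.93 and 5.27 in vehicle rats, 5.51, 5.21 and 5.37 with topotecan, 5.16, 5.58, 5.49 and 5.58 with oxaliplatin, and 6.17, 6.75, 6.79 and 7.65 with both. The combination rats were the highest without overlap, and the interaction was 1.21 ± 0.28 (adjusted p = 0.00117). It was not called with the rats of 24 h alone (adjusted p = 0.0199), with both orders of the single agents pooled (0.0150) or with the block (0.0101). Tmem140 had 1.17 ± 0.22 and Bmp5, a bone morphogenetic protein, 0.91 ± 0.17, both at an adjusted p of 0.000158, and with both orders of the single agents pooled neither was called (adjusted p = 0.116 and 0.0262). The signals of Gbp4, Agtr1a and Bmp5 in vehicle rats were under the 5th percentile of the arrays.

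A wider set is those probe sets in which neither single agent was called while the combination and its interaction were. There were 15 such raised and 57 lowered, some of them exceeding and some saturating by sign. Among the raised the median combination was 0.69 against a sum of −0.18, and among the lowered −0.54 against 0.15. Psat1, an enzyme of serine synthesis, was among the lowered, with 0.50, −0.37 and −0.96 and an interaction of −1.09. Cst7, Card9 and the mast cell protease Mcpt10 were others. In rats given oxaliplatin first, the interaction had the same sign in 11 of the 15 raised and 57 of the 57 lowered. It was called there in 0 and 10 of them, in Card9 but not in Psat1, Cst7 or Mcpt10.

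Interferon effector genes, which carry out the antiviral response, were raised with both drugs in 20 of 24 (25.9% of all probe sets). They were above topotecan in 13 (11.5%) and above oxaliplatin in 17 (7.44%). Medians over 24 genes were 1.47 with topotecan, 1.05 with oxaliplatin and 2.62 with both, against a sum of 2.40. This closeness to the sum was seen on the log2 scale. On the linear scale the interaction was positive in 23 of 24, with a median of 2.27 times the vehicle signal. Isg15, a ubiquitin-like effector, was 8.14, 8.25, 7.81 and 7.75 in vehicle rats, 10.65, 9.18 and 11.72 with topotecan, 10.18, 9.45, 9.19 and 10.08 with oxaliplatin, and 13.12, 12.51, 13.17 and 10.34 with both. Rat 60 of the combination overlapped the topotecan rats and the other 3 were above all. The interaction was 0.03 (95% confidence interval −1.46 to 1.52).

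The spread between rats was wide here. The median half-width of the 95% confidence interval was 0.85 for this list against 0.33 over all genes, and 6 of 24 intervals lay within −1 to 1. The list mean in rat 60 was 10.02 and in the other combination rats 11.13 to 11.68. The 4 called members, all positive, were Isg20 (1.63), Cmpk2 (1.43), Lgals3bp (1.08) and Rsad2 (0.66), each with a negative sum. None of 12 interferon sensors and regulators was called. Of 22 genes of the gamma type 1 was called positive, Gbp4 (7.39% of all probe sets), and 2 negative (6.27%). The 2 were the class II genes RT1-Da (−0.95) and Cd74 (−0.69).

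Platelet and megakaryocyte genes were raised with both drugs in 14 of 14 (25.9% of all probe sets), against 0 called with topotecan (16.1%) and 3 with oxaliplatin (24.9%). No interaction of the list was called, against 13.7% of all probe sets. The medians were 0.20, 0.36 and 0.79 against a sum of 0.57, and 12 of 14 confidence intervals of the interaction lay within −1 to 1. All 14 included 0. Chemokines and cytokines (27 genes), B cell genes (11) and mature neutrophil genes (9) also held no called interaction. Of 9 stem and progenitor genes 2 were called negative, Myb and Erg (−0.58), and 1 of 22 endothelial genes, Stab1 (−1.09). Over all probe sets 6.27% were called negative. Of 39 cytosolic ribosomal protein genes, topotecan lowered 2 (17.3% of all probe sets), oxaliplatin 39 (30.2%) and both 37 (35.2%). A called interaction was present in 1, and it was positive (7.39% of all probe sets).

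The scale on which effects add was examined as well. On the linear signal scale additivity means that changes in signal, not folds, add. There, 917 probe sets were called above the sum and 815 below, and 1406 were called on both scales with the same sign and 0 with opposite signs. All 919 saturating probe sets with a positive log2 interaction stayed positive. For the 820 of them that both drugs lowered, a positive log2 interaction makes the linear one positive by arithmetic. The kept sign is therefore no test of these, and it also bears on the 0 with opposite signs. Of the 764 with a negative one, 13 turned positive, among them Tagln, with a linear interaction of 2.86 times the vehicle signal (adjusted p = 0.32). Other named genes raised by both drugs stayed negative but were not called on the linear scale. They were Smpd3 (adjusted p = 0.0156), Gdf15 (0.0402), Fat1 (0.216), Serpinh1 (0.334), Sfrp1 (0.475) and Adamts9 (0.733). Exceeding probe sets numbered 65. Fcnb had a linear interaction of −0.02 times the vehicle signal (adjusted p = 0.907), so that its excess was called on the log2 scale alone. Myb (−0.33, adjusted p = 0.0275) and Mcpt9 (−0.38, adjusted p = 0.047) were not called on the linear scale either. Of the 36 named genes 26 kept the call there.

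Called interactions were more numerous at later times, though times were not tested against each other. At 1 h 0 of 12532 probe sets were called by limma, with 999 at an unadjusted p under 0.05. At 6 h 311 were called (2.48%), 185 positive (1.48%) and 126 negative (1.01%). Of the 24 h saturating probe sets with a positive interaction, 745 of 919 had the same sign at 6 h, 98 of them called, and of those with a negative one 603 of 764, 33 of them called. None of the 29 exceeding probe sets was called at 6 h. Gdf15 was already at −3.88 at 6 h (adjusted p = 3.2e-05) and Uros at 1.52 (adjusted p = 0.0037), while Gfi1 was at −0.13 and Myb at −0.04. Cdkn1a, not called at 24 h, had −1.59 at 6 h (adjusted p = 0.0019).

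Other rats received oxaliplatin before topotecan, with vehicles and single agents of their own. In them 1468 interactions were called at 24 h (11.7%), 678 positive (5.41%) and 790 negative (6.3%). Rats 41 and 42 of the 4 in its oxaliplatin/NaCl group stood apart, with a mean over the skeletal muscle genes of 8.86 and 8.83, and without the arrays of strong muscle signal 725 were called. Of all called, 865 were called in both orders with the same sign, which is 50.5% of those of topotecan first and 58.9% of those of oxaliplatin first. Without the arrays of strong muscle signal the number was 550, or 32.1% and 75.9%. The sign was the same for 915 of 919 and 763 of 764 saturating probe sets and for 22 of 22 lowered and 4 of 7 raised exceeding ones, and without those arrays for 915, 763, 21 and 4. Uros had 3.25, Gdf15 −2.53, Gfi1 −1.09, Fcnb −1.43 and Myb −0.57 (adjusted p = 0.0459) there.

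The raised exceeding genes were near 0 in that order, with 0.01 for Gbp4, −0.27 for Agtr1a, 0.06 for Tmem140 and −0.18 for Bmp5, and none of the 7 probe sets was called. The median interaction of the interferon effectors was −1.04 and that of the megakaryocyte genes −0.39. The difference between orders was nevertheless not called for any probe set by limma (0, with 584 at an unadjusted p under 0.05), including these genes.

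**Figure D5:**
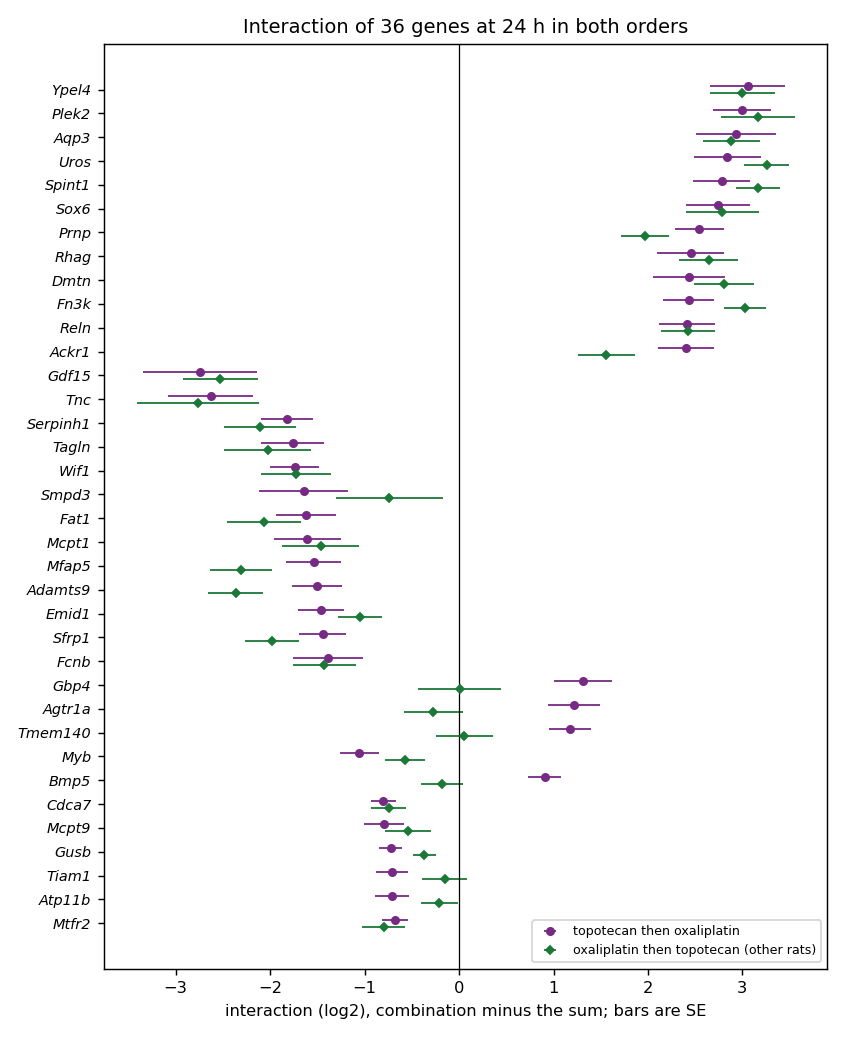
Interaction at 24 h (x axis, log2, combination minus sum, bars are SE) of the 36 named genes (y axis) with topotecan first (circles) and oxaliplatin first (diamonds, other rats). The genes lowered or raised by both single agents lie on the same side of 0 in both orders, with Uros at 2.84 and 3.25, while the raised exceeding genes such as Gbp4 lie at 1.31 and 0.01.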

How the data were processed

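The deposited table holds log2 signals of Affymetrix rat arrays, 1 per rat, which the authors made with RMA, as the submitters' processing notes name it, followed by the pvac filter of probe sets. Of 12560 probe sets 28 controls were removed, and no column of the table was left unused (0). Symbols came from the platform annotation, with 10002 probe sets of 1 symbol, 292 of several and 2238 of none. A gene is represented by the probe set of highest mean. Arrays have no read depth, and the number of rats limits precision.

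Groups came from the sample titles. The 4 treatments at 1, 6 and 24 h (47 rats, 12 groups, 35 residual degrees of freedom) were fitted with limma 3.58.1 in R 4.3.3 (lmFit, eBayes), with Benjamini-Hochberg adjustment over all 12532 probe sets. The oxaliplatin-first groups were a separate fit. Tests were tried on simulated data. Named genes are the 12 of largest interaction that both drugs lower, the 12 that both raise and the 12 exceeding, and members of 30 lists (542 of 740 genes measured). The other genes named were chosen after their values were seen. The members and lists were chosen with earlier results of these data known. Alternatives covered the threshold, rats, prior, normalization, filter, vehicle, blocks, scale and each rat left out. Promoters came from RefSeq (GRCr8) and had a match for 6566 of 7810 genes. Each rat is a separate animal.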

Additional observations from a re-analysis of the deposited data

Results flagged for a closer look

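In 108 groups of 4 rats over the 36 named genes, 5 groups held a rat far from the other 3, where chance gives about 1 in 20. Spint1 was 9.68 in NaCl/D5W rat 6 and 9.44 to 9.46 in the others, and Emid1 in the same rat was 6.76 against 6.94. Fn3k was 9.59 in NaCl/D5W rat 11 and 9.15 to 9.22 in the others. Tiam1 was 9.35 in NaCl/D5W rat 12 and 9.12 to 9.13 in the others. Cdca7 was 11.2 in NaCl/oxaliplatin rat 83 and 10.9 in the others. No difference between the orders of infusion was called for any gene.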

How the results depend on the processing

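No paired analysis was possible because each rat has its own animal number, none shared between groups. With 926 probe sets above the sum, 786 below, 1683 saturating and 29 exceeding, the counts were 1435, 1484, 2826 and 93 at an adjusted p under 0.05, and 357, 143, 494 and 6 where a fold above 2 was also required. Exceeding probe sets numbered 17 with the rats of 24 h alone, 65 on the linear scale and 91 with the direction of the sum from the other order. With both orders of the single agents and vehicles pooled, 1380 were below the sum and 2627 saturating. With the run of the sample code as a block, 440 were below the sum and 17 exceeding, and the cause was not tested. With each rat left out the 4 counts ran from 699 to 1035, 576 to 806, 1250 to 1668 and 18 to 33, the lowest exceeding count without topotecan/D5W rat 35. A second quantile normalization moved the share of calls above the sum from 54.1% to 50.4%. At an adjusted p under 0.05, 1 probe set was called at 1 h, 910 at 6 h and 2851 in the other order. At 0.01 the other order had 1468, 876 with the rats of 24 h alone and 725 without arrays of strong skeletal muscle signal. Without NaCl/oxaliplatin rats 77 and 84, 502 probe sets were below the sum and 15 exceeding. The last 2 alternatives were added after seeing the data. Of the 36 named genes, Tagln reversed on the linear scale (2.86) and 9 lost the call there, with 26 kept. Over 389 other values 22 lost the call, in 10 genes that include Gbp4, Agtr1a, Tmem140 and Bmp5, and 0 reversed. With rats left out 28 of 540 did, in Smpd3, Fcnb, Mcpt9, Atp11b and Tiam1, up to an adjusted p of 0.0352. Other probe sets of Reln (0.40) and Sfrp1 (−0.39 and −0.61) had smaller interactions and were not called. The small groups limit how small an interaction can be called, and the range of the arrays limits large sums.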
